A study of Mus musculus with 10 samples.

Results

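The genes described here are those of CDC45, the GINS complex and the proteins that fire and protect the replication fork: *Cdc45*, *Gins1*, *Gins2*, *Gins3*, *Gins4*, *Recql4*, *Wdhd1*, *Timeless*, *Tipin* and *Clspn*. They were listed by name, with no measured value used as a filter, but with earlier results of these data known. All 10 of them were found by gene identifier among the 45232 gene entries of the expression matrix. RNA was sequenced from NIH3T3 cells, an immortalized mouse fibroblast line, after 60 h in medium with 0% serum, which the labels describe as the quiescent state. Lin37 is a subunit of MuvB, the core of the DREAM repressor complex that sits on cell cycle genes in quiescent cells, and the question was which transcripts depend on it there. Every library came from *Lin37* knockout cells, and each of the 2 clones carried InDels made with a Cas9 nickase, at exon 4 (clone 411-27) or at exon 6 (clone 632-2). Each mutation is therefore represented by 1 clone, and parental NIH3T3 cells were not analysed here. The clones held an inducible episome, from which luciferase was made in the KO arm and wild-type Lin37 in the rescue arm, so that both arms share the mutated gene and the vector. The exon 4 clone had 2 KO and 2 rescue libraries. The exon 6 clone had 3 and 3, of which the third is a technical replicate of the second, and each such pair was averaged, which left 4 KO and 4 rescue replicates. The labels do not say whether replicates were separate cultures, so the *p*-values measure only the spread between these samples.

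CDC45 and the GINS tetramer join the MCM2-7 ring at licensed origins, and together they form the CMG helicase that unwinds DNA ahead of the polymerases. RECQL4 acts in the loading of CDC45 and GINS, WDHD1 (also known as AND-1) tethers the helicase to DNA polymerase alpha, and the TIMELESS-TIPIN pair and Claspin travel with the fork, stabilize it and pass the checkpoint signal from ATR to CHK1. Most of these proteins are made from genes that rise when cells leave quiescence and pass into S phase. E2F sites and cell cycle genes homology regions (CHR) are the promoter elements through which DREAM is known to bind such genes.

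The region around the start site of 4 of these genes is shown because such elements lie in promoters. RefSeq promoters of build GRCm38.p6 were matched for *Cdc45*, *Gins3*, *Wdhd1*, *Timeless* and *Clspn*. The start that RefSeq gives for *Timeless* lies 6001 bases from the gene start in the annotation used here, so its sequence is not shown, and *Gins1*, *Gins2*, *Gins4*, *Recql4* and *Tipin* are named only. Each run is written 5′ to 3′ on the strand of its gene, from 150 bases before the RefSeq start to 30 bases after it. Capitals mark E2F words (TTNNCGN, with C or G at each N), CHR words (TTTGAA or TTCGAA) and CCAAT words, searched on both strands, with a match on the other strand shown as its reverse complement.
*Cdc45*, chr16:18811943-18812122, minus strand: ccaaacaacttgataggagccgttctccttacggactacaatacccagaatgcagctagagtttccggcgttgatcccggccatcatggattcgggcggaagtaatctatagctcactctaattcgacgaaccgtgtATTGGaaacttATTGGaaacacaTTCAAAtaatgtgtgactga
*Gins3*, chr8:95633409-95633588, plus strand: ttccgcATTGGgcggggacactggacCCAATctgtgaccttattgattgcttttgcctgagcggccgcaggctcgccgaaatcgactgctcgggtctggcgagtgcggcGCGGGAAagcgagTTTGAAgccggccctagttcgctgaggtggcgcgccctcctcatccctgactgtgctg
*Wdhd1*, chr14:47276828-47277007, minus strand: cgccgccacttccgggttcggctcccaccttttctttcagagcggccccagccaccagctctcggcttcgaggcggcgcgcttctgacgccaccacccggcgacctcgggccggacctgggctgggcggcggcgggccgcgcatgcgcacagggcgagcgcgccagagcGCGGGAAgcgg
*Clspn*, chr4:126556830-126557009, plus strand: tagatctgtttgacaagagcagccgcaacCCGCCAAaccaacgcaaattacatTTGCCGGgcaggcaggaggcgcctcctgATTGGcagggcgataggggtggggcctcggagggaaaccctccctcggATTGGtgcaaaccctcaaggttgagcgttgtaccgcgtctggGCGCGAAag

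Over the full window of 250 bases before to 50 bases after the start, an E2F word was present in 3 of the 5 matched promoters (*Gins3*, *Wdhd1* and *Clspn*), against 17.8% of all 32851 promoters in the table. A CHR word was present in 2 (*Cdc45* and *Gins3*), against 19.2% of all promoters, and a CCAAT word in 3 (*Cdc45*, *Gins3* and *Clspn*), against 37.4%. *Timeless*, which is counted among the 5, held none of these words, and its RefSeq start lies 6001 bases from the annotated gene start. The *Cdc45* window held a CHR word from base 11 to base 16 after the start, next to a pair of CCAAT words. The *Gins3* window held an E2F word from base -41 to -35 and a CHR word from base -28 to -23. None of the matches overlapped another. These are matches of letters only, and a promoter without a word may still hold a site. For *Cdc45*, the paper's reporter assays mutated an E2F site in the promoter, and activity rose in serum-starved wild-type cells. In starved *Lin37* knockout cells the intact and mutated *Cdc45* promoters did not differ significantly in those assays. Co-transfected Lin37 brought back repression of the intact promoter.

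*Lin37* itself was measured first. In the exon 4 clone it stood at 0.285 and 0.284 RPKM in the KO replicates and at 2.54 and 2.12 in the rescue replicates, and in the exon 6 clone at 0.417 and 0.274 against 4.92 and 4.76. These and all further levels are RPKM (read counts divided by transcript length and by library size) that were rescaled so that the median gene has the same level in every library. The rescue arms were higher in both clones with no overlap (log2 change of KO minus rescue of -2.25, SE 0.17, adjusted *p* = 0.000293, limma with Benjamini-Hochberg adjustment). InDels need not remove the RNA, so this shows the episome and not the mutated allele. The scaling factors of the libraries ran from 0.324 to 2.70, and that of each KO library was 1.56 to 2.77 times that of the rescue library with the same number. Fibroblast markers summed to between 470 and 765 RPKM in KO replicates and between 506 and 829 in rescue replicates, and none of the 8 was called. Epithelial, endothelial and leukocyte markers summed to at most 1.36 RPKM in any replicate, and 6 of these 10 markers (*Krt8*, *Krt18*, *Pecam1*, *Kdr*, *Ptprc* and *Adgre1*) were under 0.1 RPKM in all. The leukocyte sum was nearly all *Cd68*, a lysosomal protein, which stood at 0.956 and 0.648 RPKM in the exon 4 KO against 0.910 and 0.605 RPKM in rescue and at 1.35 and 1.26 RPKM in the exon 6 KO against 0.792 and 0.791 RPKM. It was not called over both clones (log2 change 0.27, SE 0.14, adjusted *p* = 0.640) or in the exon 6 clone (0.49, SE 0.10, adjusted *p* = 0.152, limma with Benjamini-Hochberg adjustment). *Cdh1* stood at 0.214 to 0.471 RPKM in the exon 4 clone and at most at 0.0929 RPKM in the exon 6 clone, and was not called. The part of such cells in the results was not tested.

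Of the 10 genes, 5 were higher in KO than in rescue cells over both clones (*Cdc45*, *Gins2*, *Gins4*, *Recql4* and *Clspn*), and 0 were lower. Over all 16866 genes tested, 1.61% were called higher (limma, fitted to log2(RPKM + 0.5) with a term for the clone, adjusted *p* under 0.05), and 0.083% were called lower. All 10 log2 changes were positive, with a median of 0.75, while the median over all genes tested was -0.03. Summed over the 10 genes, the level was 16.2 ± 1.43 RPKM (SD, n = 4) in KO replicates and 5.92 ± 0.512 RPKM (SD, n = 4) in rescue replicates. Every KO replicate was above every rescue replicate for 7 of the 10, a pattern that 3.11% of all genes tested showed. In 8 of the 10 the KO replicate was above its same-numbered rescue replicate in all 4 pairs, against 8.96% of all genes. When the replicate number entered the fit as a block, *Timeless* was called as well, so that 6 of the 10 were higher, against 1.64% of all genes.

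**Figure D1:**
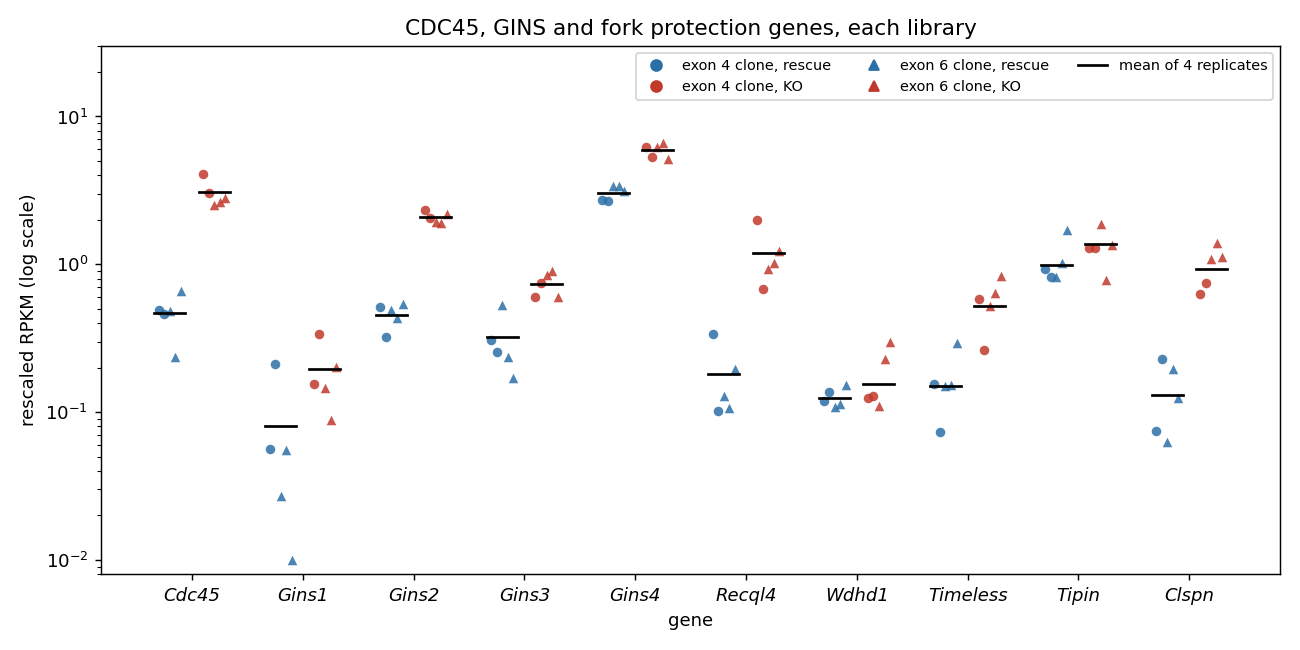
Rescaled RPKM (log axis) of the 10 genes in each of the 10 libraries, with rescue in blue, KO in red, circles for the exon 4 clone and triangles for the exon 6 clone; black bars are means of the 4 replicates, and values under 0.01 are drawn at 0.01. *Cdc45* rises from 0.469 to 3.10 RPKM on average with no overlap, whereas *Wdhd1* lies at 0.124 and 0.156 with overlapping points.

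*Cdc45* (ENSMUSG00000000028.11, chr16:18780447-18811987 on the minus strand of GRCm38) encodes the subunit that activates the helicase together with GINS, and it had the largest log2 change of the 10. In the exon 4 clone it stood at 4.09 and 3.04 RPKM in KO and at 0.488 and 0.459 RPKM in rescue replicates. In the exon 6 clone the values were 2.53 and 2.73 RPKM against 0.484 and 0.445 RPKM. The lowest KO replicate was thus far above the highest rescue replicate, and the KO mean of 3.10 ± 0.694 RPKM was 6.61 times the rescue mean of 0.469 ± 0.0203 RPKM (SD, n = 4 each). The log2 change was 1.87 (SE 0.12, adjusted *p* = 0.000155, limma with Benjamini-Hochberg adjustment). The technical pair of the exon 6 rescue differed more than the 4 replicates did, at 0.234 and 0.657 RPKM.

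The GINS subunits did not share 1 response. *Gins2* (chr8:120578633-120589304), which encodes the PSF2 subunit, stood at 2.34 and 2.05 RPKM in the exon 4 KO and at 0.512 and 0.324 RPKM in its rescue. In the exon 6 clone it was at 1.95 and 2.06 RPKM against 0.489 and 0.486 RPKM. The KO replicates were close to each other and well separated from rescue, with a log2 change of 1.45 (SE 0.10, adjusted *p* = 0.000254, limma with Benjamini-Hochberg adjustment) and a ratio of the means of 4.64. The exons of *Gins2* overlap those of *Gse1* on the opposite strand over 2758 bases, or 67.3% of its exon length, and whether the counting used strand is not stated, so reads there cannot be told apart. *Gse1* stood at 1.64 ± 0.618 RPKM in KO and at 1.36 ± 0.562 RPKM in rescue replicates (SD, n = 4 each) and was not called (log2 change 0.20, SE 0.16, adjusted *p* = 0.783, limma with Benjamini-Hochberg adjustment).

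*Gins4* (chr8:23226616-23237659), the gene of the SLD5 subunit, was the most abundant of the 10 in every replicate. It stood at 6.25 and 5.28 RPKM in the exon 4 KO, at 2.73 and 2.70 RPKM in the exon 4 rescue, at 6.21 and 5.92 RPKM in the exon 6 KO and at 3.37 and 3.28 RPKM in the exon 6 rescue. The groups did not overlap, and the log2 change of 0.87 (SE 0.09, adjusted *p* = 0.00164, limma with Benjamini-Hochberg adjustment) was the smallest among the 5 called genes. None of its 31-base words was found in another gene.

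*Gins3* (chr8:95633453-95645060), the gene of the PSF3 subunit, stood at 0.604 and 0.748 RPKM in the exon 4 KO against 0.309 and 0.254 RPKM in rescue. In the exon 6 clone it was at 0.840 and 0.747 RPKM against 0.527 and 0.204 RPKM. Every KO replicate was above every rescue replicate, but the log2 change of 0.60 (SE 0.13) missed the threshold (adjusted *p* = 0.0761, limma with Benjamini-Hochberg adjustment), and it passed without exon 6 rescue replicate 1, which is the higher of the rescue replicates (adjusted *p* = 0.0394, limma). *Gins1* (chr2:150905400-150931280), the gene of the PSF1 subunit, was near the lower limit of measurement. It stood at 0.156, 0.339, 0.146 and 0.144 RPKM in the KO replicates and at 0.0564, 0.212, 0.0272 and 0.0277 RPKM in the rescue replicates. The second replicate of the exon 4 clone was the highest in both arms and the groups overlapped, with a log2 change of 0.26 (SE 0.13, adjusted *p* = 0.623, limma with Benjamini-Hochberg adjustment).

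In protein the 4 GINS subunits are present once each per complex, but their transcripts were not at equal levels per length. The ratio of the highest to the lowest subunit, *Gins4* to *Gins1*, ran from 12.7 to 124 over the 8 replicates. *Gins4* was 2.57 to 3.19 times *Gins2* in the KO replicates and 5.34 to 8.32 times *Gins2* in the rescue replicates.

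*Recql4* (chr15:76703553-76710548), which encodes a RecQ family helicase needed for origin firing, stood at 1.99 and 0.684 RPKM in the exon 4 KO against 0.339 and 0.102 RPKM in rescue. In the exon 6 clone the values were 0.935 and 1.13 RPKM against 0.128 and 0.151 RPKM. The groups did not overlap and the means differed 6.58-fold, yet the replicates of the exon 4 clone were far apart within both arms, with replicate 1 the higher. The log2 change was 1.27 (SE 0.22, adjusted *p* = 0.0234, limma with Benjamini-Hochberg adjustment), with the largest standard error of the 10. The call was lost without exon 4 rescue replicate 2 (adjusted *p* = 0.0744, limma) and without any 1 of the exon 6 replicates (adjusted *p* from 0.0857 to 0.111, limma). It was kept with the replicate number as a block.

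*Wdhd1* (chr14:47240944-47276857) was not detectably different. It stood at 0.124, 0.128, 0.109 and 0.263 RPKM in the KO replicates and at 0.119, 0.136, 0.109 and 0.133 RPKM in the rescue replicates. Except for exon 6 KO replicate 2, all replicates lay within a narrow range, and the log2 change was 0.07 (95% interval -0.19 to 0.32, adjusted *p* = 0.913, limma with Benjamini-Hochberg adjustment). At this low level the added 0.5 RPKM understates a fold change.

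Among the fork protection genes, *Clspn* (chr4:126556935-126593903), the gene of the checkpoint adaptor Claspin, had the largest ratio of means of the 10. It stood at 0.627 and 0.750 RPKM in the exon 4 KO against 0.0740 and 0.228 RPKM in rescue, and at 1.08 and 1.26 RPKM in the exon 6 KO against 0.0623 and 0.160 RPKM. All KO replicates were above all rescue replicates, the means of 0.930 ± 0.292 and 0.131 ± 0.0779 RPKM (SD, n = 4 each) differed 7.09-fold, and the log2 change was 1.17 (SE 0.15, adjusted *p* = 0.00469, limma with Benjamini-Hochberg adjustment).

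The partners TIMELESS and TIPIN, which form a stable heterodimer, gave different values. *Timeless* (chr10:128232065-128252941) stood at 0.580 and 0.264 RPKM in the exon 4 KO against 0.154 and 0.0733 RPKM in rescue, and at 0.522 and 0.733 RPKM in the exon 6 KO against 0.150 and 0.224 RPKM. The groups did not overlap, and the log2 change of 0.64 (SE 0.14) was just outside the threshold (adjusted *p* = 0.0755, limma with Benjamini-Hochberg adjustment). It was called with the replicate number as a block (adjusted *p* = 0.0308, limma) and without exon 4 KO replicate 2 (adjusted *p* = 0.0275, limma). *Tipin* (chr9:64281581-64305424) stood at 1.28, 1.28, 1.86 and 1.07 RPKM in the KO replicates and at 0.926, 0.825, 0.824 and 1.36 RPKM in the rescue replicates. Its groups overlapped in the exon 6 clone, and its log2 change of 0.33 (SE 0.15, adjusted *p* = 0.597, limma with Benjamini-Hochberg adjustment) was smaller than the differences of 0.52 and 0.53 between the technical pairs of that clone.

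**Figure D2:**
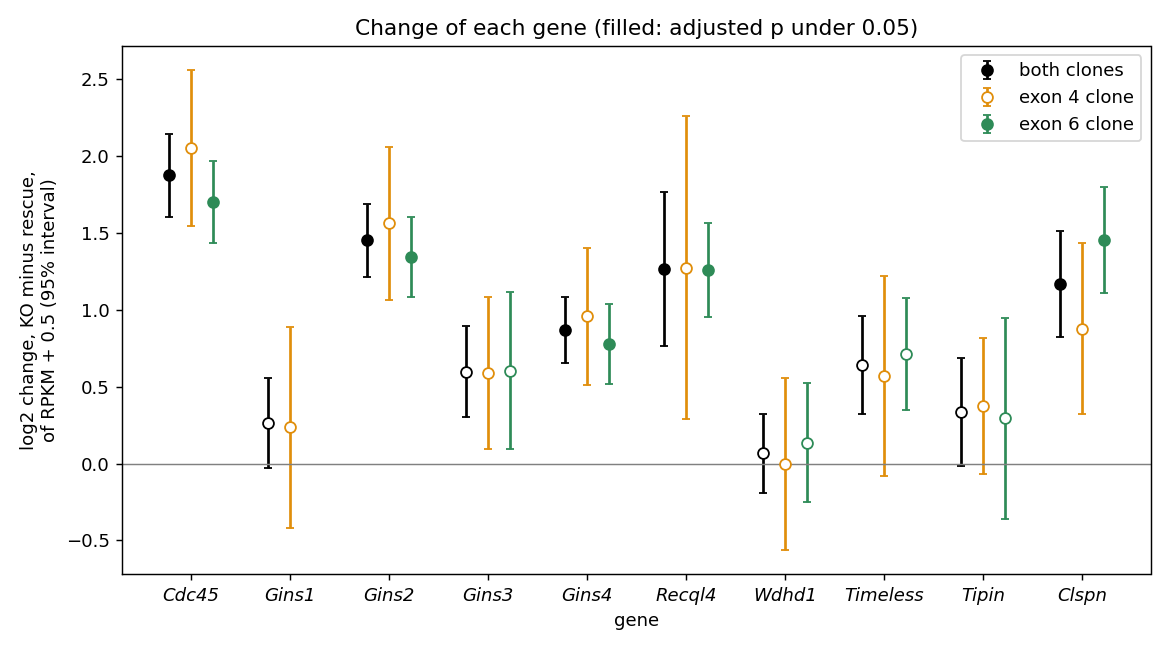
Log2 change (KO minus rescue) of RPKM + 0.5 for each of the 10 genes over both clones and in each clone alone, with 95% intervals; filled points had an adjusted *p* under 0.05. In the exon 4 and exon 6 clone, *Cdc45* lies at 2.05 and 1.70 and *Wdhd1* at -0.00 and 0.14, and *Gins1* was under the minimum level in the exon 6 clone.

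The levels in KO cells fell in the order *Gins4*, *Cdc45*, *Gins2*, *Tipin*, *Recql4*, *Clspn*, *Gins3*, *Timeless*, *Gins1* and *Wdhd1*. The ranges of the first 4 did not overlap with those of their neighbours down to *Tipin*, whereas each gene from *Tipin* downward overlapped with the next. In rescue cells *Gins4* at 3.02 ± 0.355 RPKM and *Tipin* at 0.985 ± 0.257 RPKM (SD, n = 4 each) stood above the rest, and from *Cdc45* down every neighbouring pair overlapped. *Tipin* and *Wdhd1*, which showed the smallest ratios of means of 1.39 and 1.26, were thus among the most and the least abundant of the 10.

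Each clone was also examined alone. In the exon 6 clone, 5 of the 9 genes that reached the minimum level of 0.1 RPKM were called higher, the same 5 as over both clones, against 1.24% of the 15301 genes tested, and 0 were called lower, against 0.0654%. The log2 changes were 1.70 for *Cdc45*, 1.45 for *Clspn*, 1.34 for *Gins2*, 1.26 for *Recql4* and 0.78 for *Gins4*, with adjusted *p* from 0.0104 to 0.0422 (limma with Benjamini-Hochberg adjustment). Under the replicate block *Gins4* was lost (adjusted *p* = 0.0729, limma) and 4 genes were called, against 0.928% of all genes. Leaving out a replicate leaves an arm of 1 sample, which is assumed to vary like the other arm. Without exon 6 rescue replicate 2, *Cdc45* was still called, among 69 of all genes, and without KO replicate 1, KO replicate 2 or rescue replicate 1 the calls were 0 of these genes and 0 of all genes, so the lost calls are not particular to them. The log2 changes then ran from 1.65 to 1.74 for *Cdc45*, from 1.31 to 1.37 for *Gins2* and from 0.75 to 0.81 for *Gins4*. Leaving out the third, technical library of each arm left 2 (*Cdc45* and *Gins2*), among 69 of all genes.

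In the exon 4 clone 0 of the 10 genes and 0 of 18751 genes tested (0%) were called higher by limma. At an unadjusted *p* under 0.05, 6 of the 10 and 426 of all genes were higher in KO. *Cdc45* changed by 2.05 (adjusted *p* = 0.167, limma with Benjamini-Hochberg adjustment) and *Gins2* by 1.56 (adjusted *p* = 0.221, limma) on the log2 scale. When the spread was pooled over both clones, *Cdc45*, *Gins2* and *Gins4* were called in the exon 4 clone, 3 of the 10 against 0.539% of all genes. Non-overlap within a clone is common by comparison, since 11.4% of genes (exon 4) and 21.8% (exon 6) held both KO replicates above both rescue replicates.

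Whether the change differed between the clones was tested by an interaction term. The difference was called for 0 of the 10 genes and for 0% of the 16866 genes tested (limma), of which 685 had an unadjusted *p* under 0.05. Among the 10, the difference (exon 6 minus exon 4) ran from -0.35 for *Cdc45* to 0.58 for *Clspn*, and *Clspn* was the 1 gene with an unadjusted *p* under 0.05 (95% interval 0.01 to 1.14, adjusted *p* = 0.997, limma). The interval for *Cdc45* reached from -0.86 to 0.15, so differences of that size were not detectable here.

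To compare the genes with each other with less weight on the scaling of the libraries, each was divided by *Gins4* within a replicate. The scaling still enters exon 6 replicate 2 of each arm, which is a mean of rescaled technical libraries. These tests were chosen after the values had been seen. The ratios of *Cdc45*, *Gins2*, *Recql4* and *Clspn* to *Gins4* were higher in every KO replicate than in any rescue replicate, by 1.73, 1.26, 1.79 and 2.00 on the log2 scale. Each of these 4 had an exact permutation *p* of 0.0286 (two-sided), which is the smallest that 4 against 4 replicates allow, and an adjusted *p* of 0.0619 over the 13 ratios tested by permutation. None of the 13 passed after adjustment. For *Tipin* and *Wdhd1* the mean log2 ratio to *Gins4* changed by -0.49 and -0.73 in KO (exact permutation *p* = 0.0571 and 0.114). The groups overlapped for both of these, and also for *Timeless*, *Gins3* and *Gins1*.

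Several of these genes share a promoter region with a neighbour that is read in the opposite direction. *Cdc45* starts 208 bases from *Ufd1*, which acts in protein degradation, *Recql4* 75 bases from *Lrrc14*, *Wdhd1* 74 bases from *Socs4*, and *Gins1* 659 bases from *Abhd12*. None of these 4 protein-coding neighbours was called (limma). *Lrrc14* stood at 1.68 ± 0.160 RPKM in KO and 1.85 ± 0.207 RPKM in rescue, and *Ufd1* at 3.09 ± 0.844 RPKM and 2.20 ± 0.422 RPKM (SD, n = 4 each). Their log2 changes were -0.10 (SE 0.10) and 0.39 (SE 0.16, adjusted *p* = 0.489, limma with Benjamini-Hochberg adjustment). Within a replicate the log2 ratio of *Recql4* to *Lrrc14* was higher in KO by 2.90 and that of *Cdc45* to *Ufd1* by 2.23, without overlap (exact permutation *p* = 0.0286 and adjusted *p* = 0.0619 each). *Cdc45* and *Ufd1* share 209 exon bases, which is 5.96% of the exon length of *Cdc45*, and *Recql4* shares 422 exon bases (9.72%) with *Mfsd3*, which was not called either (log2 change -0.23, SE 0.12, adjusted *p* = 0.637, limma).

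**Figure D3:**
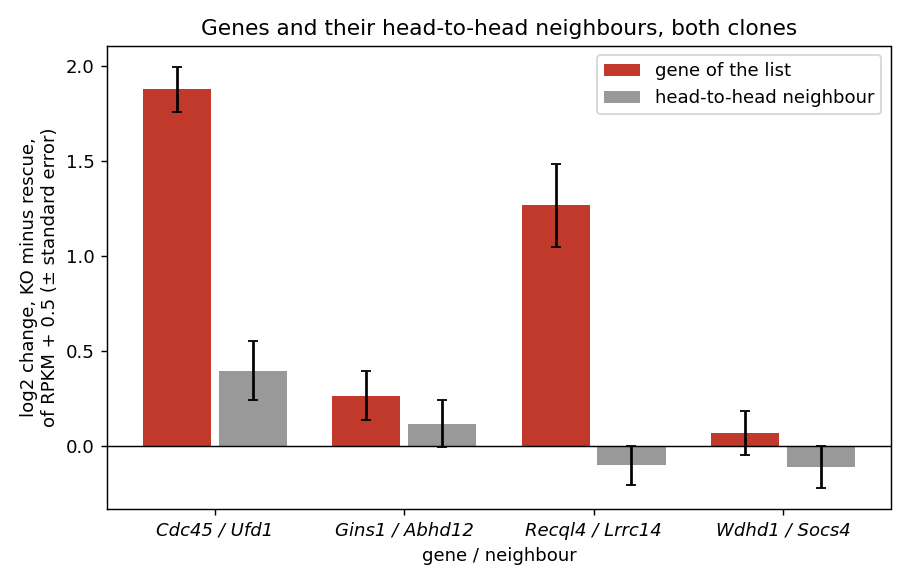
Log2 change (KO minus rescue) of RPKM + 0.5 over both clones for the 4 genes with a protein-coding head-to-head neighbour (red) and for that neighbour (grey), with standard errors. *Cdc45* lies at 1.87 beside *Ufd1* at 0.39, and *Recql4* at 1.27 beside *Lrrc14* at -0.10.

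A list of 34 other genes that fire or accompany the fork was examined for comparison, and 33 of them reached the minimum level. Of these, 14 were higher and 0 lower in KO, against 1.61% and 0.083% of all genes tested. The median log2 change of the 33 was 0.46. Of the 6 genes of the MCM2-7 motor, on which CDC45 and GINS assemble, 5 were higher, led by *Mcm5* with 1.99 (SE 0.16, adjusted *p* = 0.000373, limma with Benjamini-Hochberg adjustment). The means of *Mcm5* were 2.66 ± 1.01 RPKM in KO and 0.274 ± 0.158 RPKM in rescue replicates (SD, n = 4 each). The log2 changes of *Mcm3*, *Mcm2*, *Mcm4* and *Mcm6* were 1.17, 0.86, 0.84 and 0.75, while *Mcm7* with 0.32 was not called. The call of *Mcm6* held in 7 of 19 alternative settings.

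Of the 7 firing factors 4 were higher: *Mcm10* (0.93), *Ticrr* (0.85), *Topbp1* (0.77) and *Mtbp* (0.54). *Ticrr* and *Mtbp* encode the partners that bring TOPBP1 to the origin, where CDC45 and GINS are loaded. *Dbf4*, the regulatory subunit of the CDC7 kinase, had a log2 change of 0.84 and was called when replicate numbers were blocked (adjusted *p* = 0.0636 and, with the block, 0.0305, limma), which in turn ended the call of *Mtbp* (adjusted *p* = 0.0876, limma). Of the 10 checkpoint and clamp genes tested, 1 was higher, *Rpa2* (0.96), which encodes a subunit of the single-strand binding protein RPA, and *Hus1* had the lowest log2 change of the list with -0.07. Among the 7 genes of fork remodelling and repair, *Rtel1* (0.95), *Mms22l* (0.94) and *Tonsl* (0.47) were higher, of which *Tonsl* was not called with the block (adjusted *p* = 0.0669, limma). *Mtbp* was called in 5 of 18 alternative settings and *Tonsl* in 8 of 19. In addition, *Chtf18* (1.11) was higher among the 3 genes of the cohesion clamp loader.

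**Figure D4:**
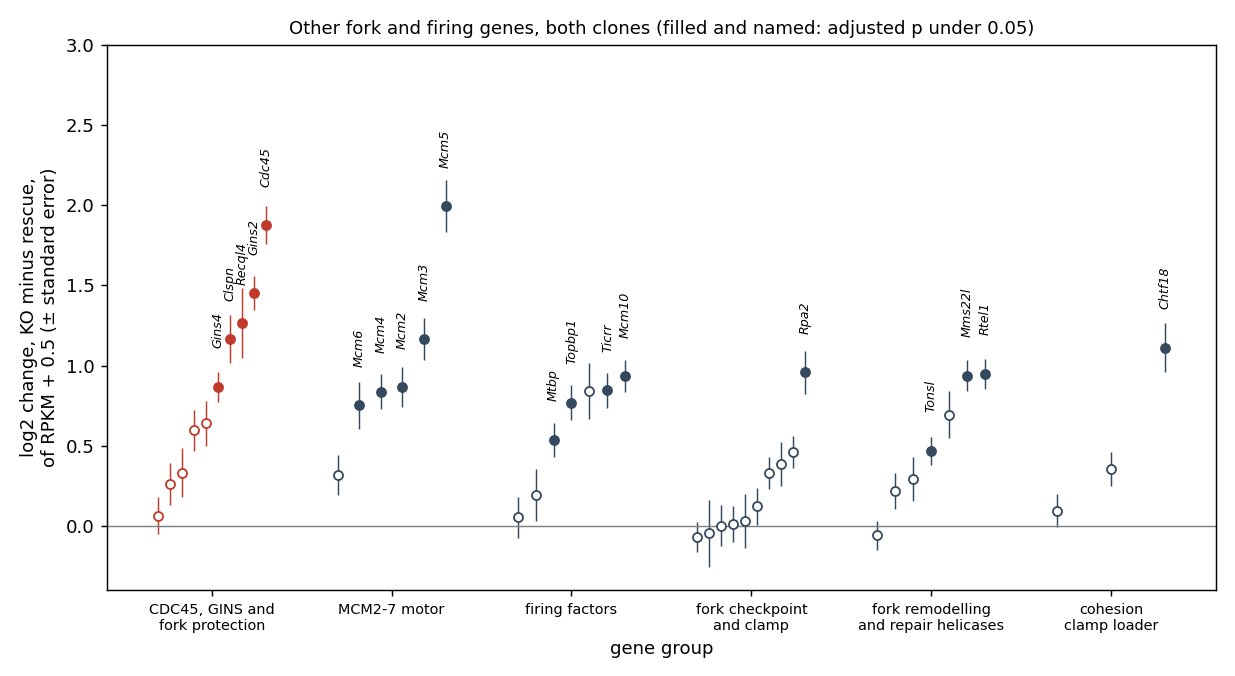
Log2 change (KO minus rescue) of RPKM + 0.5 over both clones, with standard errors, for the 10 genes (red) and for 33 other fork and firing genes (dark blue) by group; filled and named points had an adjusted *p* under 0.05. Called genes make up 5 of the 10, 5 of 6 MCM2-7 genes and 1 of 10 checkpoint and clamp genes.

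Markers of cycling cells moved with these genes. The 6 markers (*Mki67*, *Top2a*, *Ccna2*, *Ccnb1*, *Cdk1* and *Pcna*) summed to between 9.87 and 11.3 RPKM in KO replicates and to between 1.34 and 3.34 RPKM in rescue replicates. None was under 0.1 RPKM throughout, and 4 of the 6 were called higher, against 1.61% of all genes tested. The 4 quiescence genes *Gas1*, *Gas6*, *Cdkn1b* and *Ccng2* summed to between 40.6 and 64.4 RPKM in KO and between 41.0 and 62.4 RPKM in rescue replicates, with *Gas6* under 0.1 RPKM, and none was called. In the paper, DNA staining of starved cells gave slightly more S and G2/M cells with luciferase than with wild-type Lin37. Whether those were the sequenced cultures is not stated. In another cell line, C2C12 myoblasts, the paper found no significant change of cell cycle phases in starved *Lin37* knockouts. The cell cycle transcripts measured there by qPCR were nevertheless strongly raised. In bulk RNA, more cells in cycle and more RNA per quiescent cell cannot be told apart, and the part of cycling cells in these results was not tested.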

How the data were processed

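Per the labels, total RNA depleted of rRNA was sequenced from each of the 10 samples, and adapters were clipped with cutadapt and Picard 1.89 was used (submitters' processing notes). The authors mapped the reads to mm10 with segemehl, counted them per gene with rnacounter against GENCODE, and deposited RPKM values, 1 column per library. Which reads make up the library total is not given in the sources used here. All columns were matched to a sample. Only 22.9% to 40.2% of low values were whole multiples of a read step (tolerance 0.05), so whole reads were not recovered. The depth of a library is therefore an estimate, 21978599 to 90782053 reads if the step is 1 read, and no counting intervals are given. Entries at 0 numbered 7920 to 22034 per library, and the 10 highest entries held 61.5% to 86.4% of the summed RPKM. The highest single entry held 17.1% to 34.7% in KO libraries and 23.8% to 44.6% in rescue libraries. The part of this difference in the results was not tested.

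Size factors were medians of ratios, taken over 8523 genes that averaged 1 RPKM or more and were above 0 in all libraries. Genes averaging 0.1 RPKM or more were tested on log2(RPKM + 0.5) with limma 3.58.1 (R 4.3.3; lmFit, eBayes with a trend), with Benjamini-Hochberg adjustment over all genes tested. On this scale, changes of low genes are understated. The procedure was run on simulated data with changes placed only in genes averaging 1 RPKM or more. That run therefore says nothing about lower genes. Ratios were compared by exact permutation tests (70 splits; scipy 1.17.1, pandas 2.3.3, numpy 2.4.6, Python 3.11.15), and figures were drawn with matplotlib 3.10.9. Names were found for 44585 of 45232 identifiers in GENCODE annotation of GRCm38, from which positions, neighbours within 1000 bases and exon overlaps were taken. Promoter sequences are those of RefSeq.

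KO and rescue replicates share numbers in the labels. After the group means were removed, same-numbered replicates correlated at 0.48 in the exon 4 clone and at 0.36 in the exon 6 clone over 7550 genes, and a fit with the replicate number as a block was made beside each comparison.

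The genes, lists and tests were chosen with earlier results of these data known. Named with values were all 10 genes, *Lin37*, the called genes of the other fork list with its highest and lowest, and the neighbours. Added to them were the 5 genes most like the mean profile of the 10. Alternatives covered the pseudocount, the minimum level, the scaling, the technical replicates, the block, the trend, the clone covariate, the pooled spread and each replicate left out.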

Additional observations from a re-analysis of the deposited data

Results flagged for a closer look

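In 4 of the 20 groups of 4 replicates examined (10 genes, KO and rescue), 1 replicate stood apart by Dixon's test at the 95% level. Chance gives about 1 in 20 for independent samples of 1 population. Here each group mixes 2 clones and the groups share samples, so that rate need not hold. For *Gins1* the replicate that stood apart was the second of the exon 4 clone in both arms, at 0.339 RPKM in KO and 0.212 RPKM in rescue. The same rescue replicate was the low one for *Gins2*, at 0.324 RPKM. For *Wdhd1* it was exon 6 KO replicate 2, at 0.263 RPKM, the mean of 2 technical libraries at 0.229 and 0.296 RPKM. No cause was tested.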

How the results depend on the processing

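The calls of *Cdc45*, *Gins2* and *Gins4* over both clones held under all 19 alternatives. Of the 10 genes, 3 were called without a minimum level, 3 with a minimum of 1 RPKM (4 tested) and 4 to 6 when a replicate was left out, and for the other fork genes 8, 5 and 10 to 13. Over all genes 155, 93 and 174 to 265 were higher, and 875 with RPKM as deposited. In the exon 6 clone alone 0, 3, 9 (deposited RPKM), 2 (technical libraries left out) and 0 to 1 (replicates left out) of the 10 genes were called, and 0, 67, 10040, 69 and 0 to 69 of all genes. With pooled spread the exon 4 clone gave 3 of the 10 and 101 genes. With deposited RPKM, 1 neighbour (*Ufd1*) was called, and the median of all genes moved from -0.03 to 0.64 on the log2 scale. The median of the 10 genes was 0.75, 1.16 with a pseudocount of 0.1, 0.58 with 1, 1.41 as deposited and 0.72 to 0.82 with replicates left out. With a minimum of 1 RPKM only *Cdc45*, *Gins2*, *Gins4* and *Tipin* were tested, at unmoved log2 changes, and 1.16 is the median of these 4. With replicates left out, *Wdhd1* ran from -0.013 to 0.12 over both clones and from -0.027 to 0.30 in the exon 6 clone, negative without exon 6 KO replicate 2, and from -0.023 to 0.016 in the exon 4 clone, where KO replicate 1 (0.0011) and rescue replicate 2 turned it, as did deposited RPKM (0.20) and quantile normalization (0.14). *Tipin* ran from -0.0036 (without KO replicate 1) to 0.59 in the exon 6 clone. As deposited, *Hus1* (0.44), *Lrrc14* (0.66), *Mfsd3* (0.38) and *Socs4* (0.49) turned positive. The cause was not tested. The replicate block gave 6, 4 and 0 called genes of the 10 over both clones, in the exon 6 and in the exon 4 clone, 13 other fork genes, and 276 genes over both clones. Alternatives of the technical libraries could not be run for the exon 4 clone, which has none. Without counts, values near 0.1 RPKM carry an unknown counting error, so *Gins1* and *Wdhd1* are the least certain.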

Other observations

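Over the 8 replicates, 7550 genes averaging 1 RPKM or more were compared with the mean profile of the genes described here. The 5 most like it were *Foxm1* (Pearson r 0.996), *Incenp* (0.994), *Gm8203* (0.991), *Kif20a* (0.989) and *Kif20b* (0.988). *Foxm1* encodes a transcription factor of late cell cycle genes, *Incenp* a subunit of the chromosomal passenger complex, and *Kif20a* and *Kif20b* are kinesins of cell division. *Foxm1* stood at 3.63 ± 0.489 RPKM in KO and at 0.490 ± 0.0271 RPKM in rescue replicates, and *Incenp* at 6.39 ± 0.643 RPKM and 1.38 ± 0.241 RPKM (SD, n = 4 each). The 8 points are 4 KO and 4 rescue replicates that share their scaling, so the correlation mostly describes the step between the arms, and it is given as a description.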
